A study of Mus musculus with 24 samples.

Results

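A set of 10 noncoding genes whose transcripts carry small nucleolar RNAs (snoRNAs) was followed through small RNA libraries of mouse embryonic stem cells (mESC) and of neural progenitor cells (NPC) derived from them. They were Gas5, Snhg1, Snhg3, Snhg5, Snhg6, Snhg8, Snhg12, Zfas1, Epb41l4aos and 1110038B12Rik, taken by name as 10 of the 55335 genes of the deposited count table, and all 10 were found there. The series compared cells that differ at Htt, the huntingtin gene, whose CAG repeat causes Huntington's disease when it expands. Per the labels, the groups were wild-type cells (WT), an Htt knockout (KO), and heterozygous Hdh CAG knock-in cells of 4 repeat sizes (Q20, Q50, Q92, Q111), each genotype as mESC and as NPC. The titles give 92 repeats for Q92 and the growth protocol gives 89. The mESC were kept with leukaemia inhibitory factor on a layer of irradiated mouse fibroblasts, and the NPC were maintained on laminin with FGF and EGF. Each of the 12 groups had 2 libraries, 24 in all. The series design calls them biological samples without saying whether they came from separate cultures, so the p-values measure the spread between these libraries only. 

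A snoRNA host gene is transcribed by RNA polymerase II and spliced, and the snoRNAs are cut from its introns. Box C/D snoRNAs, named for the short C and D motifs near their ends, guide 2'-O-methylation of ribosomal and other RNAs, and box H/ACA snoRNAs guide pseudouridylation. The spliced hosts studied here are annotated as noncoding, several begin with the oligopyrimidine tract typical of genes of the translation machinery, and some, such as Gas5, are degraded by nonsense-mediated decay while they are translated. A small RNA library samples short RNAs and fragments, so a count on a host gene here is not a measure of its full-length spliced RNA.

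Total counts per library lay between 642384 and 2360434 in mESC and between 342022 and 682113 in NPC. Levels are given as counts per 1000000 (CPM), with each library total scaled over all 24 libraries by edgeR's TMM method. After scaling, a library without a count for a gene allowed up to 1.36 CPM (replicate 1 of Q50 mESC) to 8.44 CPM (replicate 2 of Q50 NPC). This limit is 3 counts and covers counting error only. The 20 embryonic stem cell markers examined summed to 1267 to 3723 CPM in mESC and 4.62 to 14.1 CPM in 10 NPC libraries. The 2 Q20 NPC libraries stood apart, with 355.3 and 379.1 CPM of these markers. Most of their counts on these markers fell on microRNA genes, with 261 on Mir302b and 107 on Mir293. Sox2 had 12 counts in these 2 libraries, while Dppa5a, Esrrb, Klf4, Tdgf1 and Zfp42 had 0. The same libraries had 258.2 and 236.6 CPM of the 18 neural progenitor markers, against 464.1 to 1213 CPM in the other NPC. Pou5f1 had 2 counts in all NPC libraries, both in Q20, and Nanog had 0. Of the 13 feeder fibroblast markers, Fn1 held 295 counts over the 12 mESC libraries while Col1a1, Col1a2, Col3a1, Postn, Dcn and Lum were at 0. Mir143 had 14, Mir145a 12 and Thy1 1 count in mESC, against 3, 2 and 0 in NPC. Their list summed to 10.8 to 28.2 CPM in mESC, and its part in the results was not tested. Htt itself had 0 to 9 counts per library. It had 3 and 2 in KO mESC against 8 and 8 in WT mESC, and 1 and 1 in KO NPC against 9 and 2 in WT NPC.

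The 10 host genes held 66739 counts, 0.267% of all counts in the table. Of these, 95.8% fell on 1110038B12Rik, the mouse counterpart of human SNHG32, which carries Snord52. That gene had 269 to 15359 counts per library, and none of the other 9 exceeded 146 counts in any library. Per kilobase of merged exon, 1110038B12Rik reached 1595 ± 903 CPM in mESC, against 660 ± 249 CPM in NPC (SD over 12 libraries each). Snhg5 followed at 42.1 ± 14.6 CPM per kilobase in mESC and 12.6 ± 7.38 in NPC. Snhg8 was at 8.75 ± 3.61, Gas5 at 8.01 ± 3.70 and Snhg1 at 5.67 ± 2.04 CPM per kilobase in mESC. Next came Zfas1 at 4.38 ± 2.77, Epb41l4aos at 4.29 ± 3.66 and Snhg6 at 3.23 ± 3.77. Snhg12 at 1.17 ± 0.778 and Snhg3 at 1.04 ± 0.451 were lowest. From Snhg8 downwards, each gene differed from the next by less than the larger of their standard deviations. The order compares lengths as annotated, not the parts of a gene that were read. In NPC the first 6 places of the order were the same.

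**Figure D1:**
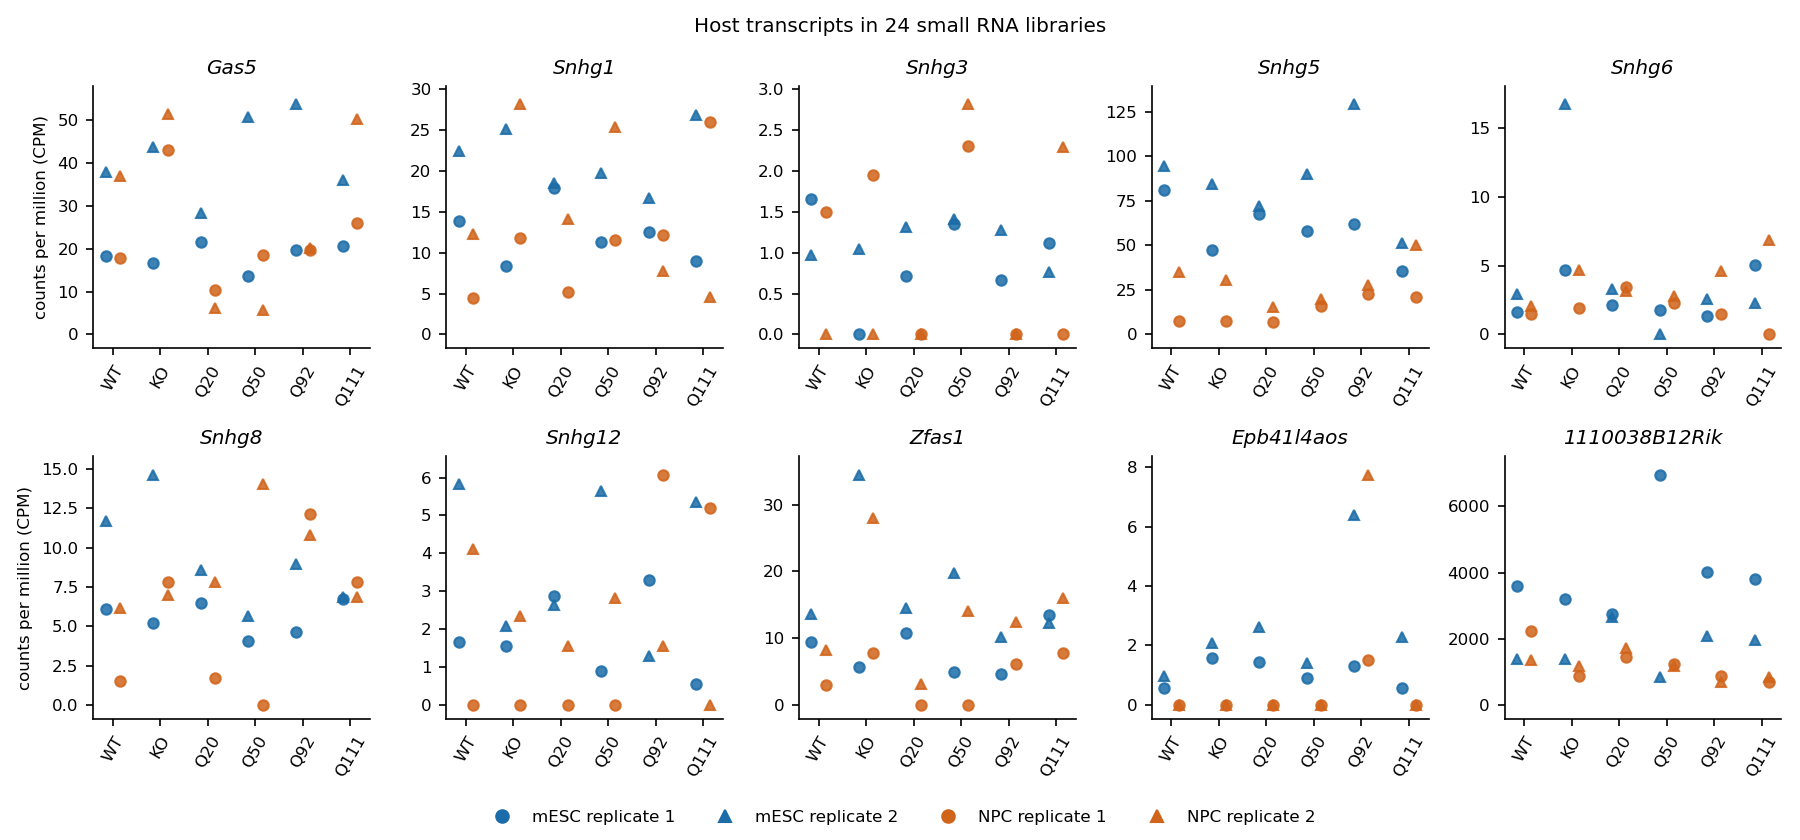
CPM of each host gene (vertical axis, its own linear scale in each panel) in the 6 lines (horizontal axis), with 1 point per library, blue for mESC and orange for NPC, circles for replicate 1 and triangles for replicate 2. Snhg5 and 1110038B12Rik lie lower in NPC than in mESC in the mean of each of the 6 lines, while Snhg3, Snhg6, Snhg12 and Epb41l4aos rest on a few counts per library.

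Since the hosts are known for the snoRNAs they carry, the counts of the snoRNA genes inside them were examined next. The annotation (GENCODE mouse release 21, GRCm38) places 35 snoRNA genes within the 10 hosts on the same strand. Gas5 has 10 of them, Snhg1 8, Snhg12 5, Zfas1 3, and Snhg3, Snhg5 and 1110038B12Rik 2 each. Snhg6, Snhg8 and Epb41l4aos have 1 each. Only 5 of the 35 had any count in the 24 libraries, and 30 were listed at 0 in all of them.

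The genes at 0 were those that lie wholly inside an annotated exon of their host. Of 31 such snoRNA genes, 30 were at 0, the exception being Gm23201 in Zfas1. The 3 that lie outside host exons all had counts. They are Snord87 in Snhg6, Snora73b in Snhg3 and Gm23639 in Epb41l4aos. Snora73a, with 77.6% of its length in a Snhg3 exon, had 287 counts in mESC and 38 in NPC. The same held outside the 10 hosts, where all 103 snoRNA genes wholly inside an exon of another gene were at 0, against 1161 of 1394 (83.3%) of those outside exons. How the authors' counter treated reads that fall in 2 overlapping genes is not given in the sources used here, and its part in these zeros was not tested. A 0 for Snord47 or Snord52 in the table is therefore not read as absence of the snoRNA.

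**Figure D2:**
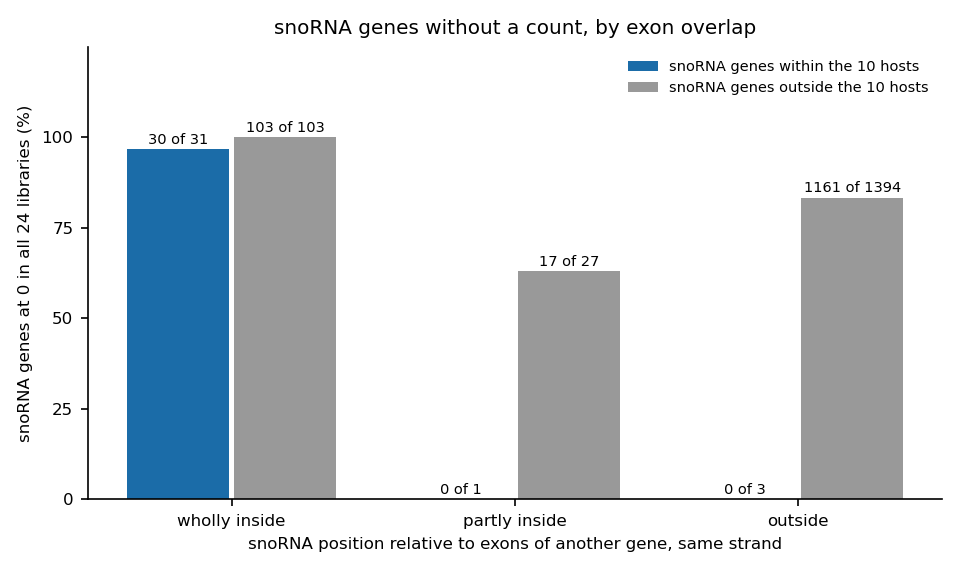
Share of annotated snoRNA genes at 0 in all 24 libraries (vertical axis, percent), by whether they lie wholly inside, partly inside or outside the exons of another gene on the same strand, for snoRNA genes within the 10 hosts (blue) and elsewhere (grey). Within the hosts, 30 of 31 snoRNA genes wholly inside an exon are at 0, and 0 of 3 outside exons.

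The sequences of 4 box C/D snoRNAs show the contrast between counted and uncounted snoRNAs, with the C motif TGATGA and the D motif CTGA in capitals and each read 5' to 3' from the annotated transcript (GRCm38). Snord87 lies in an intron of Snhg6 (chr1:9942463-9942549, minus strand) and held 348657 counts. Gm23201 (chr2:167064998-167065086, plus strand) lies in Zfas1 and held 487811 counts. Snord12 (chr2:167065276-167065365, plus strand), in the same host, was at 0 although 67 of 96 aligned positions match Gm23201. Snord52 (chr17:34950952-34951017, minus strand) lies in an exon of 1110038B12Rik and was also at 0.
Snord87: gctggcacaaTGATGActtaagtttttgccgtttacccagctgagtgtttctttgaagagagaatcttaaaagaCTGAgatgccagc
Gm23201: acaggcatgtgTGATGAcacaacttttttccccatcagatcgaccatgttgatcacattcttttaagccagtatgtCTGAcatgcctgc
Snord12: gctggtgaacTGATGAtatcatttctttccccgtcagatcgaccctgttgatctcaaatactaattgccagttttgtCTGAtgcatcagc
Snord52: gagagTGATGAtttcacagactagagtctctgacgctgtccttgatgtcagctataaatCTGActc
Of the 60 stretches of 30 bases in Gm23201, 10 also occur in Gm24123, so its counts could be shared with that gene. None of the 58 stretches of Snord87 occurs in another annotated gene.

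The gene 1110038B12Rik (chr17:34950238-34952471, minus strand) also covers a stretch with the same pair of motifs outside any annotated snoRNA gene. It runs over 63 bases (chr17:34952242-34952304) and lies in an exon of 2 of the 8 annotated transcripts and in an intron of 5 others. It is printed with 12 bases on either side, so from chr17:34952230-34952316, because a reader can set it against Snord52, with which it shares the run acagactagagt and 46 of 77 aligned positions.
1110038B12Rik stretch: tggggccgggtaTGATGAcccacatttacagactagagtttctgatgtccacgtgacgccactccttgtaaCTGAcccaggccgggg
The second annotated snoRNA of the host, Gm25744 (chr17:34952013-34952075, minus strand), was at 0. The stretch matches Gm25744 at 42 of 74 aligned positions, a share close to that with Snord52. How well unrelated sequences align was not tested.
Gm25744: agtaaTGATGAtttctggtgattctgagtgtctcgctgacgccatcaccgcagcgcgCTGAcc
The motif pair, TGATGA followed by CTGA with 35 to 80 bases between them on the transcript's strand, occurs 25 times in the 19016 exon bases of the 10 hosts, 21 of them inside annotated snoRNA genes. The pair occurs in 331 of 133417 (0.248%) windows of 100 bases in exons of other noncoding genes. That share is not a comparison with the hosts, which were chosen because they hold snoRNAs. The files give 1 count per gene, so where within 1110038B12Rik its reads lie cannot be read from them.

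Differentiation of mESC into NPC was examined first. Snhg5, the host of the Snord50 pair, and 1110038B12Rik fell, by 1.79 ± 0.26 and by 1.33 ± 0.25 on the log2 scale (SE). In edgeR's quasi-likelihood test both passed, with Benjamini-Hochberg adjusted p of 3.26e-06 and 8.96e-05 over 904 genes. Of the 10 hosts, 6 had enough counts to be tested and 2 were called, both lower. Of all tested genes, 58.4% were called and 28% were called lower. Counted over both directions, the share of hosts called was not above that of all genes. For lower calls alone, 6 hosts are too few to set their share apart from that of all genes. The median log2 change was -0.59 over the 6 hosts tested and -0.02 over all genes. Scaling by library totals in place of TMM moved that median of all genes to 0.32 and turned 275 higher and 253 lower calls into 350 and 159. Both hosts were still called lower under it, and also without both Q20 groups. In bulk libraries such as these, fewer cells of a type and less RNA per cell cannot be told apart.

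Snhg5 (chr9:88521050-88522929, minus strand) ranged from 35.9 to 129 CPM in mESC, with a median of 69.9. In NPC it ranged from 6.93 to 50.3 CPM, with a median of 20.2. Of the 12 NPC libraries, 11 lay below the lowest mESC library, and the groups overlapped only through replicate 2 of Q111 NPC. WT mESC had 80.9 and 94.5 CPM against 7.48 and 34.9 CPM in WT NPC. Q111 showed the smallest distance, with 35.9 and 51.3 CPM in mESC and 20.8 and 50.3 CPM in NPC. The fall was seen in all 6 lines within replicate 1 (mean log2 difference of CPM + 2, -2.04 ± 0.93 SD) and within replicate 2 (-1.52 ± 0.81). In the 4 wild-type libraries alone the change was -1.96 with an edgeR adjusted p of 0.0706.
The snoRNAs that Snhg5 carries, Snord50a (chr9:88521529-88521600) and Snord50b (chr9:88521797-88521868), guide methylation of 28S rRNA. They are shown because they differ at a single base, C50A (positions from 1 at the 5' end, Snord50a first), and because neither had a count.
Snord50a: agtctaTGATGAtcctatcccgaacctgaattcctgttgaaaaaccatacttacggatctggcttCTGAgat
Snord50b: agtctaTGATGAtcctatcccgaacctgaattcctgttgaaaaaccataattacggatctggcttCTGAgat
All 43 stretches of 30 bases of each occur in other annotated genes too, so their reads could not be placed uniquely at that length.

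1110038B12Rik ranged from 844 to 6947 CPM in mESC (median 2712) and from 698 to 2225 CPM in NPC (median 1175). In mESC, replicate 1 was higher than replicate 2 in all 6 lines. WT had 3586 and 1398 CPM, KO 3205 and 1381, and Q20 2762 and 2662. The lines with longer repeats had 6947 and 844 (Q50), 4029 and 2079 (Q92) and 3796 and 1963 CPM (Q111). Replicate 2 therefore held 0.122 to 0.964 times the level of replicate 1, and its 844 to 2662 CPM overlapped the NPC range. In NPC, 3 of 6 lines were higher in replicate 2. Within replicate 1 the log2 difference of NPC from mESC was -1.77 ± 0.78 (SD, 6 lines, all lower), and within replicate 2 it was -0.54 ± 0.76 (5 of 6 lower). Leaving out each library in turn kept it called, with log2 changes from -1.56 to -0.96. In the wild-type libraries alone the change was -0.32 with an edgeR adjusted p of 0.697. Without both Q20 groups it was -1.61.

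**Figure D3:**
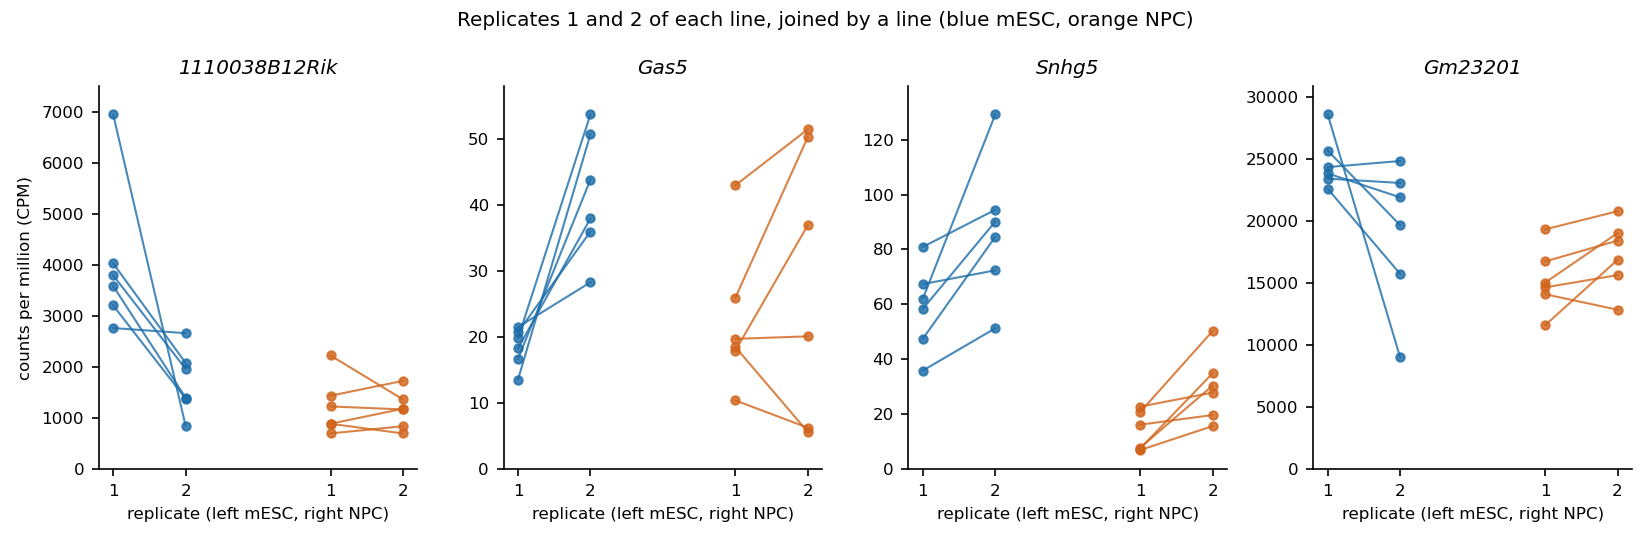
CPM (vertical axis, linear) of 1110038B12Rik, Gas5, Snhg5 and the snoRNA Gm23201 in replicates 1 and 2 (horizontal axis), with the 2 libraries of a line joined, mESC in blue on the left and NPC in orange on the right. In mESC, 1110038B12Rik lies higher in replicate 1 and Gas5 and Snhg5 lie higher in replicate 2 in all 6 lines.

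The opposite replicate pattern appeared in 5 of the other 9 hosts in mESC. How many of all genes tested in mESC show either pattern was not counted, so neither is read as particular to the hosts. Gas5 was higher in replicate 2 in all 6 lines, by 1.32 to 3.74 times, as were Snhg1 (1.03 to 3.00 times), Snhg5 (1.07 to 2.08 times), Snhg8 (1.02 to 2.80 times) and Epb41l4aos. Zfas1 was higher in replicate 2 in 5 of 6 lines, and Snhg3, Snhg6 and Snhg12 in 4 of 6. Across the 1766 genes tested in mESC, the differences between replicates 1 and 2 correlated between lines by 0.405 to 0.533 in the 10 pairs of lines without Q20. In the 5 pairs that include Q20, the correlation lay between 0.001 and 0.072. These are descriptions across genes, which are not independent. What sets the replicates apart is not in the labels, but their library totals differed in most lines. In the 5 mESC lines other than Q20, replicate 1 had 2134729 to 2360434 counts and replicate 2 had 642384 to 1149003. The Q20 mESC replicates were close, at 1795879 and 1901042 counts. The part of depth in the replicate differences was not tested.

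Gas5, the growth arrest-specific transcript and host of Snord47 and its neighbours (chr1:161034422-161038539, plus strand), did not pass the test between cell types. It ranged from 13.6 to 53.7 CPM in mESC (median 24.9) and from 5.63 to 51.5 CPM in NPC (median 19.9), with a log2 change of -0.43 ± 0.28 (edgeR adjusted p 0.200). Its groups overlapped over most of their range. Snhg1, the host of Snord22 (chr19:8723475-8726443, plus strand), ranged from 8.35 to 26.8 CPM in mESC and from 4.49 to 28.1 CPM in NPC (log2 change -0.36 ± 0.30, edgeR adjusted p 0.315). Zfas1 (chr2:167062934-167065862, plus strand) ranged from 4.62 to 34.5 CPM in mESC and from 0 to 28.1 in NPC, with -0.74 ± 0.43 (edgeR adjusted p 0.144). Without replicate 2 of Q50 NPC its value was -1.69 and passed the test (adjusted p 0.0294). It also passed with the replicate number as a block (-0.82, adjusted p 0.0255), and without the Q20 groups it was -0.43. Exons of Znfx1 overlap Zfas1 on the other strand, and whether the counting used strand is not given in the sources used here.

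The other hosts, among them those of box H/ACA snoRNAs, had few counts. Snhg8, the host of Snora24 (chr3:123507552-123508404, minus strand), ranged from 4.07 to 14.6 CPM in mESC and from 0 to 14.1 CPM in NPC. Its log2 change was -0.12 ± 0.35 (edgeR adjusted p 0.780), and turned positive at 0.20 with library totals. Snhg3 (chr4:132348014-132353686, minus strand) had 17 counts over all mESC and 5 over all NPC libraries. It overlaps the gene Rcc1 on the same strand and exons of Gm17300 on the other strand, and the part of this in its counts was not tested. Snhg12 (chr4:132308623-132311024, plus strand), which carries Snora16a, Snora44, Snora61 and the box C/D Snord99, had 42 and 12 counts. Snhg6 (chr1:9941959-9944118, minus strand) had 59 in mESC, 16 of them in 1 KO library, and 18 in NPC, and it overlaps exons of Mcmdc2 on the other strand. None of these 3 could be tested between cell types.

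Epb41l4aos (chr18:33794892-33795986, plus strand) had 1 to 5 counts in each of the 12 mESC libraries, 27 in all. In NPC it had counts in the Q92 line alone, 1 and 5, which is 1.52 and 7.74 CPM. Over all 12 NPC libraries the mean was 0.771 ± 2.24 CPM, against 1.85 ± 1.58 CPM in mESC (SD, n = 12 each). The other 10 NPC libraries held 0 counts. Together they allow up to 0.610 CPM, but singly between 4.49 and 8.44 CPM, above the mESC mean. They are set apart here by their zeros, so their joint limit is not a comparison with mESC. The gene was too low to be tested between cell types, and at this depth no level was detectable in those 10 libraries.

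**Figure D4:**
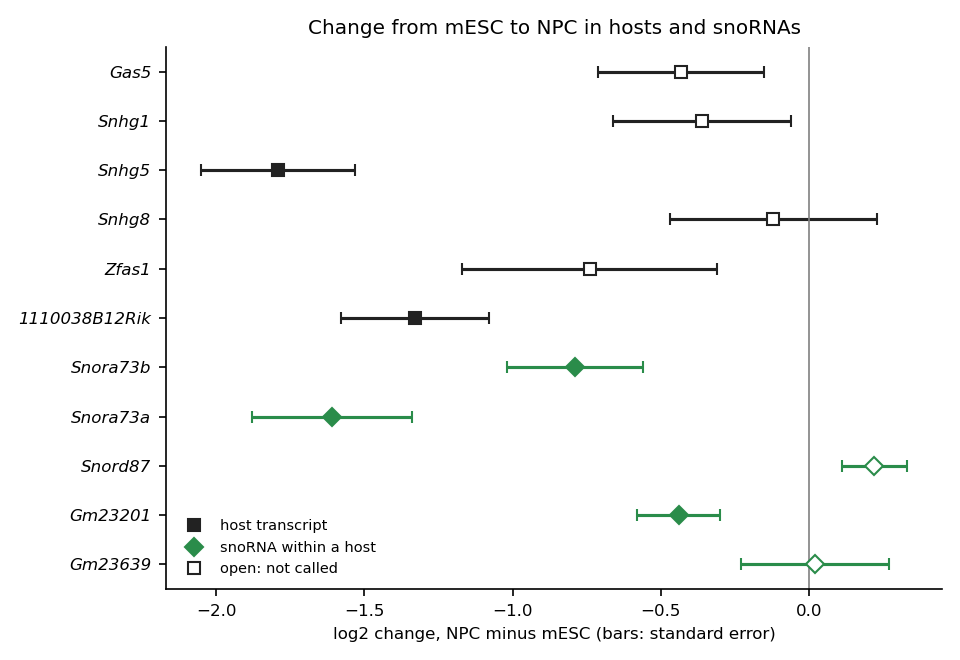
Log2 change of NPC minus mESC (horizontal axis, edgeR, bars for the standard error) for the 6 hosts tested (black squares) and the 5 snoRNAs with counts inside hosts (green diamonds), filled where the adjusted p was under 0.05. Snhg5 and 1110038B12Rik lie furthest left among the hosts, at -1.79 and -1.33, and Snord87 lies right of 0 at 0.22.

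The counted snoRNAs had many more counts than their hosts. Snord87 took 4163 counts per count of Snhg6 in mESC and 5725 in NPC. Gm23201 took 2019 counts per count of Zfas1 in mESC and 1963 in NPC. The ratios were far smaller for the H/ACA genes, with 73.2 and 50.6 for Snora73a and Snora73b together over Snhg3, and 14.4 and 25.8 for Gm23639 over Epb41l4aos. The host counts beneath them, in mESC and NPC, were 59 and 18 for Snhg6 and 192 and 51 for Zfas1. They were 17 and 5 for Snhg3 and 27 and 6 for Epb41l4aos. With so few host counts, differences in these ratios between cell types are not read as results and were not tested. Snora73, also known as U17, acts in the cleavage of the ribosomal RNA precursor.

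Between cell types, 3 of the 5 counted snoRNAs were called, where 58.4% of all tested genes were. All 3 were lower, where 28% of all tested genes were called lower, and 5 snoRNAs are too few to compare these shares. Snora73a fell from 16.99 ± 3.95 to 5.89 ± 4.13 CPM (SD over 12 libraries each), a log2 change of -1.61 ± 0.27 (edgeR adjusted p 2.17e-05), and 11 of 12 NPC libraries lay below the lowest mESC library. Without replicate 1 of Q50 NPC its change was -2.50. Snora73b had a mean of 61.6 ± 22.2 CPM in mESC, against 35.9 ± 9.44 CPM in NPC, with -0.79 ± 0.23 (edgeR adjusted p 0.00466). Gm23201 had 21890 ± 5142 CPM in mESC, against 16250 ± 2788 CPM in NPC, with -0.44 ± 0.14 (edgeR adjusted p 0.0106). Its log2 difference of CPM + 2 was -0.71 ± 0.21 within replicate 1 (SD, 6 of 6 lines lower) and -0.08 ± 0.70 within replicate 2 (3 of 6 lower). Without replicate 1 of Q50 mESC the change was -0.26, and with wild-type libraries alone -0.04. For Snora73b these differences were -0.23 ± 0.52 (4 of 6 lower) and -1.18 ± 0.59 (6 of 6 lower). With library totals, Snora73b (-0.49, adjusted p 0.119) and Gm23201 (-0.09, adjusted p 0.563) were no longer called. Snord87 had 14140 ± 3414 CPM in mESC, against 17020 ± 5864 CPM in NPC, and was not called (0.22 ± 0.11, edgeR adjusted p 0.0841), but was called higher with library totals (0.56, adjusted p 3.37e-06). It was also called without replicate 1 of WT mESC (0.26, adjusted p 0.0476), of Q50 mESC (0.28, 0.0133) or of Q111 mESC (0.26, 0.0339). The change was 0.07 without replicate 2 of KO mESC, 0.10 without replicate 1 of Q92 mESC and 0.11 without the Q20 groups. Gm23639 had 24.7 ± 9.27 and 25.9 ± 14.7 CPM, a log2 change of 0.02 ± 0.25 (adjusted p 0.954).

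Within mESC, no host passed the test in any comparison of lines. In KO against WT, Q20 against WT, Q50, Q92 and Q111 against Q20, 7 hosts were tested among 1766 genes. The log2 changes of these hosts lay between -0.88 and 0.76 over the 5 comparisons, and their lowest adjusted p was 0.969. The share of all genes called was 0.0566% in Q20 against WT and 0% in the other 4. The slope on the number of CAG repeats, fitted over the 8 knock-in mESC libraries, called 0% of 1487 genes, with host slopes between -0.04 and 0.02 log2 per 10 repeats. None of the 7 hosts had an unadjusted p under 0.05 in these 6 comparisons. These tests did not model the replicate number, so the replicate differences described above stayed in their spread. With the replicate number as a block, no host was called either.

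In NPC, 1110038B12Rik was lower in each line with a longer repeat than in Q20. For comparisons within NPC the CPM were scaled over the 12 NPC libraries. Q20 had 1758 and 2014 CPM, Q50 had 1250 and 1167, Q92 had 1141 and 897, and Q111 had 849 and 895. Neither Q20 library overlapped any of these lines. The log2 change from Q20 was -0.64 ± 0.20 for Q50 (edgeR adjusted p 0.0391), -0.89 ± 0.20 for Q92 (0.00663) and -1.11 ± 0.21 for Q111 (0.00125). These 3 comparisons share the 2 Q20 libraries. The same 2 libraries held 355.3 and 379.1 CPM of the embryonic stem cell markers, against 4.62 to 14.1 CPM in the other NPC. Most of that fell on the microRNA genes Mir302b and Mir293, and its part in the result was not tested. Of the 4 hosts tested, 1, 1 and 2 were called, where 17.7%, 15.9% and 14.3% of 441 genes were called. The hosts called lower numbered 1 in each, where 8.62%, 9.52% and 8.16% of all genes were called lower. In Q111, 1 host was called higher, where 6.12% of genes were. With library totals 1110038B12Rik was still called lower in all 3 comparisons, although the calls over all genes moved. For Q50, 40 genes higher and 38 lower became 18 and 62. For Q92, 28 and 42 became 36 and 25. For Q111, 27 and 36 became 24 and 54.

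With WT as the control, whose libraries had 2273 and 1452 CPM, the change was -0.63 for Q50 (edgeR adjusted p 0.0882), -0.87 for Q92 (0.0106) and -1.10 for Q111 (0.00229). The Q50 call was lost when any of its 4 libraries was left out, with adjusted p from 0.112 to 0.174. The Q92 call was lost without replicate 2 of Q20 (-0.67, adjusted p 0.137) or replicate 2 of Q92 (-0.73, 0.139). The Q111 call held without each of its 4 libraries, with log2 changes from -1.21 to -0.84. The KO line had 1034 and 1237 CPM, below both WT libraries, and did not pass the test (-0.72 ± 0.20, edgeR adjusted p 0.106, where 1.36% of genes were called). It passed without replicate 2 of WT, with DESeq2 size factors and in the DESeq2 Wald test.

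**Figure D5:**
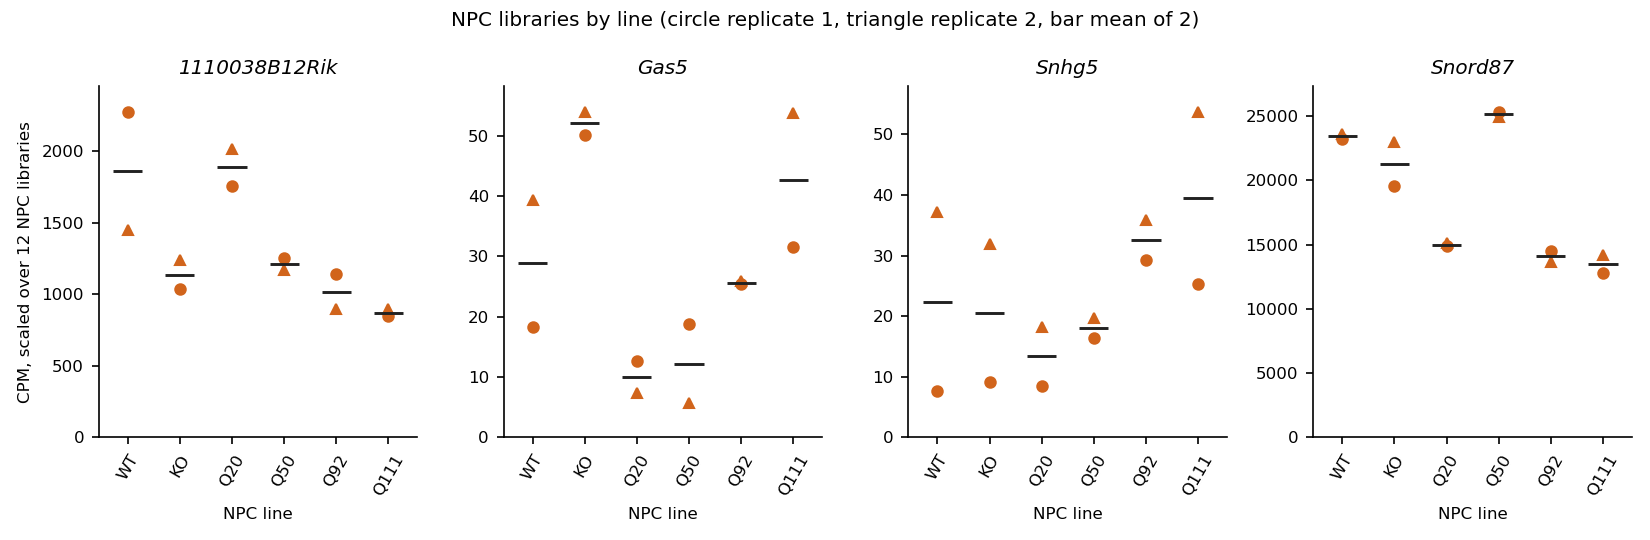
CPM scaled over the 12 NPC libraries (vertical axis, linear from 0) of 1110038B12Rik, Gas5, Snhg5 and the snoRNA Snord87 in the 6 NPC lines (horizontal axis), with circles for replicate 1, triangles for replicate 2 and a bar for their mean. The mean of 1110038B12Rik is 1886 CPM for Q20 and 872 CPM for Q111, that of Gas5 10.01 and 42.6 CPM, and Snord87 is high in WT, KO and Q50.

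Gas5 was higher in Q111 than in Q20 NPC, on few counts. Q20 had 6 and 4 counts (12.7 and 7.31 CPM), Q50 had 8 and 2 (18.8 and 5.62 CPM), Q92 had 13 and 13 (25.4 and 25.9 CPM), and Q111 had 10 and 22 (31.6 and 53.7 CPM). The log2 change of Q111 from Q20 was 2.11 ± 0.56 (edgeR adjusted p 0.0155), and the groups did not overlap. Against WT, with 18.3 and 39.4 CPM, it was 0.64 and did not pass (adjusted p 0.424). The call was lost without either Q20 library (adjusted p 0.0652 and 0.126) or without replicate 2 of Q111 (0.195). KO had 50.1 and 53.9 CPM, above both WT libraries (0.90 ± 0.45, edgeR adjusted p 0.435). In Q20 against WT the change was -1.47 ± 0.57 (adjusted p 0.0989), where 12.7% of genes were called and no host was. Without replicate 1 of WT, Gas5 was called there.

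Over the 8 knock-in NPC libraries, 3 hosts were tested for a slope on repeat number and 2 were called, where 6.45% of 403 genes were called (2.73% higher and 3.72% lower). Per 10 CAG repeats, 1110038B12Rik changed by -0.11 ± 0.02 (edgeR adjusted p 0.0208) and Gas5 by 0.24 ± 0.06 (0.0387) on the log2 scale. Snhg5 had a slope of 0.18 ± 0.05 and did not pass (0.0736). Without the Q20 libraries the slopes were -0.07 (adjusted p 0.265) for 1110038B12Rik and 0.29 (0.118) for Gas5, and neither was called. Neither was called with library totals (adjusted p 0.0905 and 0.0658), or with the replicate number as a block (0.0540 and 0.0776). The 1110038B12Rik call was lost without either library of Q20 or of Q111 or without replicate 2 of Q92, with adjusted p from 0.0184 to 0.166 over the 8 libraries left out. The Gas5 call was lost without either library of Q20, Q92 or Q111, with adjusted p from 0.0370 to 0.152.

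A difference in these effects between the cell types was tested directly. For the CAG slope, none of the 5 hosts tested was called by edgeR, where 1.51% of 663 genes were. Snhg5, Gas5 and Zfas1 had an unadjusted p under 0.05. The difference in slope, NPC minus mESC, was 0.20 ± 0.09 for Gas5 (adjusted p 0.407) and -0.12 ± 0.09 for 1110038B12Rik (0.792). For KO against WT none of the 6 hosts tested was called, where 0% of 904 genes were, with none at an unadjusted p under 0.05. A slope called in NPC is therefore not shown to differ from that in mESC.

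Among the snoRNAs in hosts, Snord87 was called between NPC lines. It had 23250 and 23570 CPM in WT, 19560 and 22990 in KO and 25310 and 24930 in Q50. It had 14860 and 15120 CPM in Q20, 14530 and 13630 in Q92 and 12760 and 14210 in Q111. The 6 libraries of the first 3 lines all lay above the 6 of the others. That grouping was made from these values and does not follow repeat number. How many other genes split the same way was not counted. Its log2 change was -0.64 ± 0.11 in Q20 against WT (edgeR adjusted p 0.000557) and 0.74 ± 0.11 in Q50 against Q20 (9.09e-05). Of all genes tested, 12.7% and 17.7% were called in these comparisons. With no filter on low counts neither was called (-0.92, adjusted p 0.0551, and 0.67, 0.710). Against WT in place of Q20, Q50 differed by 0.10 (0.744). Its host Snhg6 had 0 to 3 counts in each NPC library. Its slope on repeat number was -0.05 ± 0.03 (adjusted p 0.561).

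Other genes of the same kind were taken from lists and from the annotation. Of 279 protein-coding genes with a snoRNA inside, 48 were tested in NPC against mESC, 18 were called lower and 5 higher, with a median log2 change of -0.42. Over all tested genes 58.4% were called, 28% lower. Counted over both directions, the coding hosts called were not above the 58.4%. The 18 of 48 called lower were above the 28% with TMM, but this depended on the scaling. With library totals, 6 of the 48 were called in each direction, beside 350 higher and 159 lower over all genes. The share of coding hosts called lower was then below that of all genes. Among those lower with TMM were Ncl (-1.47 ± 0.17, edgeR adjusted p 1.08e-07), which encodes nucleolin, and Nop58 (-2.13 ± 0.35, 1.29e-05), which encodes a core protein of box C/D particles. Map2, of the neuronal cytoskeleton (6.45 ± 0.43, 1.02e-10), and the kinase gene Gsk3b (2.43 ± 0.32, 8.74e-07) were higher. Nop58 was the 1 gene tested of 12 snoRNP proteins.

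Of 63 other noncoding genes with a snoRNA inside, 3 were tested and all 3 were called lower in NPC, where 28% of all tested genes were. They were Rian of the imprinted Dlk1-Dio3 region (-3.58 ± 0.17, edgeR adjusted p 4.69e-14), Dancr (-1.0 ± 0.30, 0.00637) and Cct6a (-1.61 ± 0.28, 3.00e-05), which the annotation types as noncoding although the symbol is that of a chaperonin subunit. Dancr was not called with library totals (-0.68, adjusted p 0.0774). Of 5 regulators of oligopyrimidine mRNAs, 2 were tested and Pabpc1, which encodes a poly(A)-binding protein, was lower (-0.59 ± 0.18, adjusted p 0.00741). It was not called with library totals (-0.25, adjusted p 0.300). The other, Larp1, had 0.08 ± 0.27 (adjusted p 0.812). Of 13 genes of nonsense-mediated and other decay of host RNA, Smg1 alone was tested and did not pass (-0.79 ± 0.35, edgeR adjusted p 0.0592). Larp1 and Smg1 are named because few genes were tested.

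Within mESC, none of these other host genes was called in any comparison of lines. Within NPC, Rian set Q20 apart, with 4.41 ± 0.30 against WT (edgeR adjusted p 1.33e-08) and -3.31 ± 0.28, -5.26 ± 0.32 and -3.44 ± 0.29 for Q50, Q92 and Q111 against Q20. Of 23 coding hosts tested in NPC, Eef2 and Rack1, of the translation machinery, were called higher in Q20 than in WT (1.64 ± 0.44 and 1.39 ± 0.42), where 12.7% of all genes were called. In Q50 against Q20, Rack1 was lower (-2.01 ± 0.48) and Rpl7a, a ribosomal protein gene, higher (0.44 ± 0.14), where 17.7% of all genes were called. No coding host was called in Q92 or Q111 against Q20 or in KO against WT. For the slope on repeat number, Rian was called in NPC (-0.41 ± 0.09, edgeR adjusted p 0.0234), where 6.45% of all genes were. That slope includes the Q20 libraries, and the changes of Rian from Q20 did not follow repeat number from Q50 to Q111. The ribosomal protein gene Rpl12 was called for the difference in slope between cell types (0.56 ± 0.13, 0.0162), where 1.51% of all genes were.

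Likeness to other genes was measured by Spearman's rho over the 12 group means of log2(CPM + 2), among the 904 tested genes and for the 3 hosts with the highest mean CPM. It is a description, since the groups share libraries and depth. The patterns closest to 1110038B12Rik were those of Rest, a repressor of neuronal genes (0.944), the chromatin remodeller gene Chd9 (0.937) and the RNA methyltransferase gene Nsun2 (0.916). Closest to Snhg5 were Rfc5, of replication factor C (0.951), the snoRNA Gm22980 (0.937) and the microRNA gene Mir101b (0.937). Gas5 had no gene as close, with Hnrnpl, a splicing factor gene (0.790), Fkbp3 (0.776) and the histone H4 gene Hist1h4i (0.748) first. Between hosts, rho ran from -0.098 for 1110038B12Rik and Snhg8 to 0.692 for 1110038B12Rik and Snhg5.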

How the data were processed

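The authors deposited 1 table of counts, whole numbers not normalized, for 55335 Ensembl mouse genes in 24 libraries of single reads, with no column left unassigned. The submitters' processing notes name CASAVA 1.8, STAR and HTSeq and the build GRCm38.p6, with no settings. The annotation release and the use of strand are not given in the sources used here. Gene identifiers were matched to GENCODE mouse release 21 (GRCm38): 181 were unmatched and held 57 of 25027120 counts. Columns named for 89 repeats were assigned to Q92.

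Tests used edgeR 4.0.16 in R 4.3.3 (glmQLFit, glmQLFTest, TMM) on the counts, on genes kept by filterByExpr (at least 10 counts, total at least 15). Adjustment was Benjamini-Hochberg over the whole tested table, with calls at 0.05. Comparisons within a cell type used its 12 libraries, NPC against mESC used 24, and slopes per 10 CAG repeats used 8 or, between cell types, 16 knock-in libraries. All 10 hosts are named, with up to 2 counted snoRNAs each. Other genes were named where called in a list, or as the 3 tested genes most alike by Spearman's rho to each of the 3 hosts with the highest mean CPM. As alternatives, library totals, DESeq2 size factors, no filter, the DESeq2 1.42.0 Wald test, a replicate block, an additive model, WT as control, 89 repeats, subsets and leaving out each library were tried. The tests were run on simulated data first. The replicate numbers of the labels were not taken to pair samples. The hosts, lists and tests were chosen with earlier results of these data known. Sequences come from the GENCODE transcripts.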

Additional observations from a re-analysis of the deposited data

How the results depend on the processing

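In NPC against mESC, 2 hosts were called. The count was 6 with no filter on low counts, where Gas5, Snhg1, Zfas1 and Epb41l4aos were added, and 0 with wild-type libraries alone. Leaving out each library gave 2 to 3. In KO against WT in NPC, with 0 called, DESeq2 size factors and the DESeq2 Wald test gave 1, and leaving out a library gave 0 to 1. In Q20 against WT in NPC leaving out a library gave 0 to 1. In Q50 against Q20 in NPC, with 1 called, no filter and WT as the control gave 0, and so did leaving out any library, from 0 to 0. In Q92 against Q20 in NPC, with 1 called, no filter gave 0 and leaving out a library 0 to 1. In Q111 against Q20 in NPC, with 2 called, no filter, the Wald test and WT as the control gave 1, and leaving out a library 1 to 2. For the CAG slope in NPC, with 2 called, library totals, no filter and leaving out Q20 gave 0, the Wald test 1, and leaving out a library 0 to 2. Of 194 such counts, 162 stayed within 1.5 times. The causes were not tested. Without a filter the median log2 change of all genes in NPC against mESC was -0.35, with 464 genes called higher and 1560 lower.

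Directions turned for Gas5 in NPC against mESC with wild-type libraries alone (0.08) and for Snhg8 with library totals (0.20) and on leaving out replicate 1 of WT NPC (0.01) or of Q50 NPC (0.06), with a range of -1.08 to 0.06. Snord87 turned with no filter (-0.37). Gm23639 had -0.51 with no filter, -0.29 with wild-type libraries alone, -0.03 without Q20 and -0.15 to 0.13 on leaving out a library. No other host, snoRNA or list gene followed under the alternatives changed direction.

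The replicate block gave 3 called hosts in NPC against mESC, adding Zfas1 (-0.82, edgeR adjusted p 0.0255), 3 in Q111 against Q20 in NPC, adding Snhg5, and 0 for the CAG slope in NPC. It changed no other count of called hosts. Differences between replicates correlated above 0.1 in 10 of 15 pairs of mESC lines (0.001 to 0.533) and in 4 of 15 pairs of NPC lines (-0.086 to 0.412). Those 10 mESC pairs were the ones without Q20, at 0.405 to 0.533, so the mESC lines other than Q20 shared a replicate difference. The labels name no shared batch, and the main tests did not take the numbers to pair samples. The block is given as the alternative. Depth limits the 9 hosts other than 1110038B12Rik, none of which passed 146 counts in a library.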

Other observations

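Besides the stretch in 1110038B12Rik, 3 more pairs of the C and D motifs lie in host exons outside annotated snoRNA genes. They are in Gas5 (chr1:161037745-161037792), in Snhg1 (chr19:8726308-8726377) and in Snhg5 (chr9:88522055-88522105), over 48, 70 and 51 bases. These genes had at most 47, 35 and 146 counts in a library. The counts are per gene, so they do not show whether any of these stretches was read.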
